A study of Homo sapiens with 8 samples.

Results

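The loci described here are the long non-coding RNA (lncRNA) loci of untreated LM3 and HepG2 cells, compared between the lines. Members were the loci with values in both tables and a mean of at least 0.5 FPKM (fragments scaled by locus length and library size) over the vehicle libraries of either line, which 7302 of 15469 loci with values met. Of these, 4963 reached 0.5 FPKM in both lines, 853 in HepG2 alone and 1486 in LM3 alone. At the edge of the filter, 244 members lay within 10% above it and 249 loci within 10% below it.

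The study asked about lncRNAs linked to super-enhancers in hepatocellular carcinoma, and sequenced 8 libraries of total RNA after removal of ribosomal RNA. HepG2 and LM3 are both labelled as hepatocellular carcinoma lines, and each was given vehicle (DMSO) or JQ1, a BET bromodomain inhibitor whose dose and time the labels do not give. The 4 vehicle libraries, 2 of HepG2 and 2 of LM3, form the comparison, and the 4 JQ1 libraries were used as a repeat of the same contrast. No genetic change is given for any group, all the cells compared had received DMSO, and each line is a single model of the disease. The labels do not say that replicates came from separate cultures, so the spread between them may be technical.

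Long non-coding RNAs are transcripts that do not encode a protein, and many are made in few cell types. Some act in the nucleus, where they build compartments or recruit chromatin regulators, some act in the cytoplasm, and for others only the host role is known, as for the host transcripts of microRNAs and small nucleolar RNAs (snoRNAs). In liver, H19 is an imprinted fetal RNA that is silenced after birth and often returns in tumours, while MALAT1 and NEAT1 are the abundant RNAs of nuclear speckles and paraspeckles.

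The promoters of 4 loci on which the results turn are shown because they span the CpG contents found among loci that differ between the lines. H19 and LUCAT1 were higher in HepG2, and DIO3OS and EPIST were higher in LM3. The letters run 5′ to 3′ from 250 bases before to 50 bases after the RefSeq start on GRCh38.p14, and capitals mark the dinucleotide CG. H19 lies at chr11:2001217-2001516, LUCAT1 at chr5:91314353-91314652, DIO3OS at chr14:101560373-101560672 and EPIST at chr5:135039998-135040297, all on the minus strand.
H19: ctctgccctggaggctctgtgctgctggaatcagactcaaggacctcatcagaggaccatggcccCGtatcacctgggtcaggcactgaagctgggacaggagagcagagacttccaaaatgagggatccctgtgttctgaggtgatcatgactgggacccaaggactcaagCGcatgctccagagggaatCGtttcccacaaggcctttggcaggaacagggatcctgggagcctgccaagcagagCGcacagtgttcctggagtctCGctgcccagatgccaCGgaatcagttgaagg
LUCAT1: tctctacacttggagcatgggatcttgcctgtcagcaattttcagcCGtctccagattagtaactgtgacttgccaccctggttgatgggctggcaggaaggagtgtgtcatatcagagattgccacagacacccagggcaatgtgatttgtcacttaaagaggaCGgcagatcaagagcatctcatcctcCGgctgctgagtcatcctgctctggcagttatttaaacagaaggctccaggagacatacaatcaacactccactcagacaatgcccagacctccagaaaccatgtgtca
DIO3OS: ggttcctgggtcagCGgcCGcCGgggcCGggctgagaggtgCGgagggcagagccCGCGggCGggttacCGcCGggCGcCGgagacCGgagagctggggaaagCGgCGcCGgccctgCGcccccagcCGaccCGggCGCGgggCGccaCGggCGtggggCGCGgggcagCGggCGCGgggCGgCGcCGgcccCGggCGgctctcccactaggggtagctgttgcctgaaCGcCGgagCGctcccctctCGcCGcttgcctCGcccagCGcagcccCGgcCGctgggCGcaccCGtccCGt
EPIST: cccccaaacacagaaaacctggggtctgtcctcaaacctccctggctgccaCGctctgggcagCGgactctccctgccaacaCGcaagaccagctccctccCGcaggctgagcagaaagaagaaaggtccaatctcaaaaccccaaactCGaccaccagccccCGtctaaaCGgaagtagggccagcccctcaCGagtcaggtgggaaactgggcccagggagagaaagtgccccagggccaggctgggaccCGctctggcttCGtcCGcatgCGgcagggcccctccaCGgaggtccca
The H19 window holds 6 CG dinucleotides, that of LUCAT1 3, that of DIO3OS 46 and that of EPIST 13. The RefSeq start lay 204 bp from the start of the locus in the tables for H19, 145 bp for LUCAT1, 9 bp for DIO3OS and 0 bp for EPIST.

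The FPKM of the vehicle libraries summed to between 29369 and 35742 over loci with values, and ribosomal and mitochondrial loci held 12.3% to 14.5% of that sum. Depth was estimated from loci under 400 bp, taking a product of FPKM and span between 20 and 45 as the value of 1 fragment. The median product, over 47 to 64 loci per vehicle library, corresponds to about 29600000 to 32200000 fragments. The fixed bounds limit how far this median can move, so the estimate is rough and does not show that depth was equal. At that estimated depth, 3 fragments on a locus of 1 kb would be worth 0.0931 to 0.102 FPKM. Replicates of a line correlated at r = 0.974 for HepG2 and 0.976 for LM3 across the members on log2(FPKM + 0.5), against 0.717 to 0.736 for the 4 pairs of libraries from different lines. These are correlations across loci, which are not independent, and libraries of a line share its table.

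LM3 vehicle replicate 2 stood apart at the low end. At 15 loci with at least 5 FPKM in both HepG2 vehicle libraries and at most 2% of that level in LM3 vehicle replicate 1 and in both LM3 JQ1 libraries, the second LM3 vehicle library held a median of 2.53% of the HepG2 level, from 1.51% to 13.2%, and none of the 15 was at 0. The medians of the other 3 LM3 libraries were 0. In the opposite direction the HepG2 libraries were alike, with medians of 0.244% to 0.383% of the LM3 level. The plot of these percentages by library shows the gap. It is in part by construction, since the rule held the other 3 LM3 libraries at or under 2% and left replicate 2 free. The rule was not run with another LM3 library left free. These loci were picked after the values were seen, and the cause was not tested. The counts, and the named loci among these 15, are therefore given with and without this library.

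**Figure D1:**
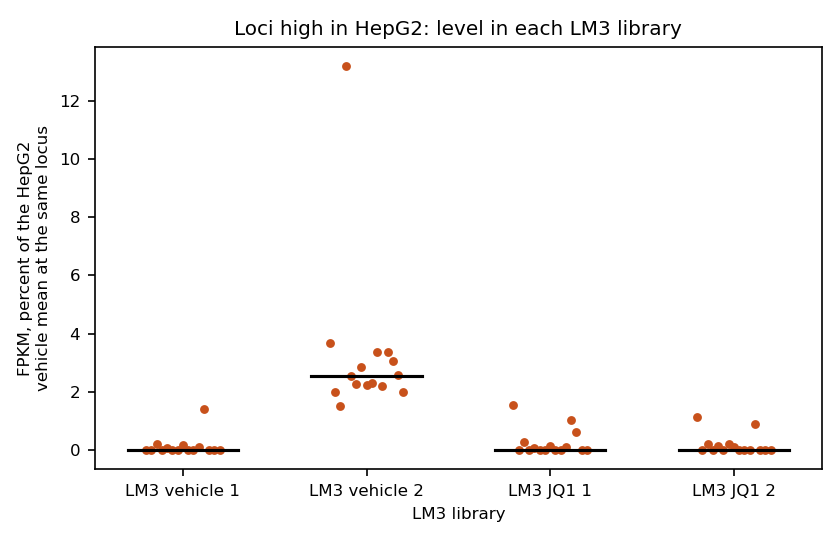
Level of 15 loci that were high in HepG2, in each LM3 library, as a percent of the HepG2 vehicle mean at the same locus (vertical axis). Loci were chosen at no more than 2% in every LM3 library but vehicle replicate 2. Points are loci and bars are medians: the median of LM3 vehicle replicate 2 is 2.53%, and that of each other library is 0.

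Most lncRNA loci had similar levels in the lines, and a small group differed strongly. A locus was called when the difference of mean log2(FPKM + 0.5) was at least 4-fold and no library of one line overlapped the other line. By this rule 187 of 7302 members (2.56%) were higher in LM3 and 118 (1.62%) were higher in HepG2, 4.18% in all. Within a line, 4 loci in HepG2 and 3 in LM3 differed at least 4-fold between replicates, whereas 307 to 339 loci did so between libraries of different lines. A difference under 2-fold was found for 5905 members (80.9%), and 68 of the 100 most abundant loci were shared. Without LM3 vehicle replicate 2 the counts were 193 and 129. In bulk RNA, fewer cells that make a transcript and less of it per cell cannot be told apart. The plot of LM3 against HepG2 levels shows both groups of called loci off the diagonal.

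No test is given across the lines, because the tables may have been scaled separately and 2 libraries against 2 cannot give an exact permutation p (two-sided) under 0.333. The median difference over all members was 0.248 log2 units toward LM3 (5th to 95th percentile -1.22 to 1.46), and libraries did not overlap for 3920 members (53.7%) higher in LM3 and 1949 (26.7%) higher in HepG2. With each line centred on the median of loci expressed in both, 150 loci were called higher in LM3 and 152 in HepG2. With the lines centred on snoRNA host genes, the counts were 217 and 97. The share of calls toward LM3 thus ran from 49.7% to 69.1% with scaling, against 61.3% as deposited. Just past the fold threshold, 66 calls lay under 2.2 log2 units, and 76 loci without overlap lay between 1.8 and the threshold.

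**Figure D2:**
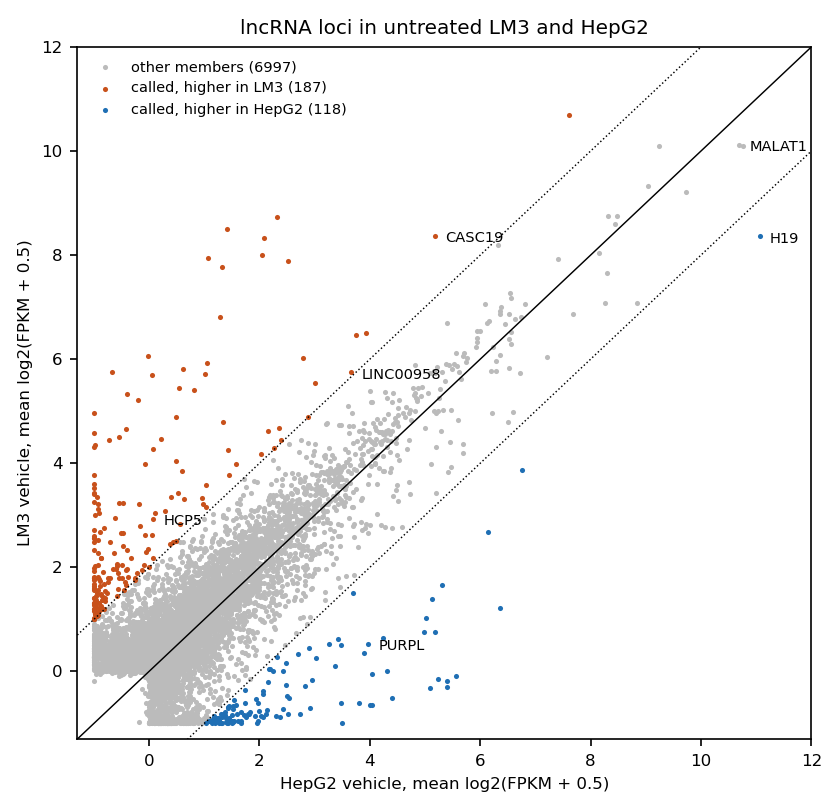
Mean log2(FPKM + 0.5) of each member in LM3 vehicle (vertical axis) against HepG2 vehicle (horizontal axis), 2 libraries each. The solid line marks equal levels and the dotted lines a 4-fold difference, with 187 called loci above and 118 below. CASC19 and H19 are the most abundant of the labelled called loci.

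H19 showed the largest gap in FPKM among the members. It stood at 2037.71 and 2248.65 FPKM in HepG2 and at 310.22 and 347.06 in LM3, a ratio of 6.52 (log2 difference -2.70 ± 0.152, SD, n = 2 libraries per line). H19 ranked second and first among loci in the HepG2 libraries and at position 13 in both LM3 libraries, so it was abundant in each line and the libraries did not overlap. MALAT1 stood at 1700.23 and 1593.19 FPKM in HepG2 and at 1116.52 and 1103.62 in LM3 (log2 difference -0.57), and ranked 2 or 3 in every vehicle library. NEAT1 stood at 95.2 and 88.8 FPKM in HepG2 and at 114.93 and 118.71 in LM3 (log2 difference 0.34). Neither was called. Under quantile normalization the MALAT1 difference was 0 and that of NEAT1 turned to -0.14. The 10 most abundant loci together held 30.9% of the members' FPKM in HepG2 and 23.1% in LM3.

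Among the other imprinted RNAs, DIO3OS, transcribed beside and opposite to the thyroid hormone deiodinase gene DIO3, went the other way. It stood at 0.41 and 0.53 FPKM in HepG2 and at 4.1 and 4.75 in LM3, a ratio of 9.41. KCNQ1OT1, the antisense RNA of the KCNQ1 domain, stood at 1.32 and 1.29 FPKM in HepG2 and at 0.8 and 0.81 in LM3 and was not called. PEG13 was at 0.82 and 0.91 FPKM against 0.19 and 0.26. Of 7 imprinted members, 1 was called in each direction, against 2.56% toward LM3 and 1.62% toward HepG2 of all members, and 3 showed no overlap in each direction, against 53.7% and 26.7%. Their median difference of 0.14 lay near the 0.248 of all members and turned negative under 3 of 4 scalings.

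The called loci with a symbol that were higher in LM3 were led by CASC19, a locus named for cancer susceptibility on 8q24. CASC19 was at 36.46 and 35.12 FPKM in HepG2 and at 320.98 and 340.4 in LM3, a ratio of 9.24. EPIC1, an RNA described as a partner of MYC, was at 0.86 and 0.77 FPKM in HepG2 and at 9.25 and 10.14 in LM3. HCP5, which lies in the major histocompatibility complex beside MICB, was at 0.74 and 0.4 FPKM against 7.09 and 7.24. In each of the 3 the LM3 libraries stood above both HepG2 libraries, as the call requires. LINC00958, near TEAD1, was at 11.59 and 12.69 FPKM in HepG2 and at 53.14 and 53.12 in LM3, a ratio of 4.38, and was no longer called under 3 of 4 scalings.

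Several host, antisense and intergenic transcripts were also higher in LM3, at levels under 10 FPKM. MIR3667HG, a microRNA host, was at 0.01 and 0 FPKM in HepG2 and at 3.3 and 3.85 in LM3. MUC12-AS1, which runs opposite to the mucin gene MUC12, was at 0 and 0.32 FPKM against 5.12 and 3.72. KCNK15-AS1, opposite to a potassium channel gene, was at 0.21 and 0.29 FPKM against 3.34 and 3.39. These loci were near the floor in HepG2 and above it in both LM3 libraries. LINC02747, whose nearest coding gene is MYEOV, was at 0.2 and 0.14 FPKM in HepG2 and at 3.76 and 3.65 in LM3. LINC01116 was at 0.51 and 0.47 FPKM against 4.6 and 4.62. SLC9A3-AS1, opposite to a sodium and hydrogen exchanger gene, was at 0.97 FPKM in both HepG2 libraries and at 7.26 and 6.08 in LM3.

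In HepG2, PURPL, a p53-induced RNA named for its effect on p53 levels, was at 15.27 and 15.17 FPKM, against 0.64 and 1.31 in LM3 (log2 difference -3.45). LINC02055 was at 6.58 and 7.54 FPKM against 0 and 0.26. COSMOC, opposite to ELP2, was at 6.48 and 8 FPKM against 0.32 and 0.46. The LM3 value was the higher in replicate 2 in each of the 3, the library described above, and without that library the log2 differences were -3.79 for PURPL, -3.92 for LINC02055 and -3.23 for COSMOC. LUCAT1, a stress-induced RNA, was at 11.87 and 12.93 FPKM in HepG2 and at 2.29 and 2.36 in LM3, a ratio of 5.33. DHRS4-AS1, antisense to the retinol dehydrogenase gene DHRS4, was at 9.2 and 9.09 FPKM against 0.9 and 1. DNAH17-AS1, opposite to a dynein gene, was at 7.11 and 6.75 FPKM against 0.69 and 1.07.

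Other HepG2-high RNAs were host and intergenic transcripts. MIR31HG, the host of miR-31, was at 4.63 and 5.17 FPKM in HepG2 and at 0.44 and 0.57 in LM3. MIR646HG was at 2.7 and 2.98 FPKM against 0.1 and 0.22. LINC01515 was at 5.13 and 5.09 FPKM against 0.28 and 0.39, and LINC02582 was at 5.32 and 5.03 against 0.11 and 0.35 (log2 difference -2.98, and -3.22 without LM3 vehicle replicate 2). In none of them did the libraries of the lines overlap, which the call requires. The plot of named loci shows the library values of these RNAs. Its loci were picked as called, so the gap between lines there follows from the rule.

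**Figure D3:**
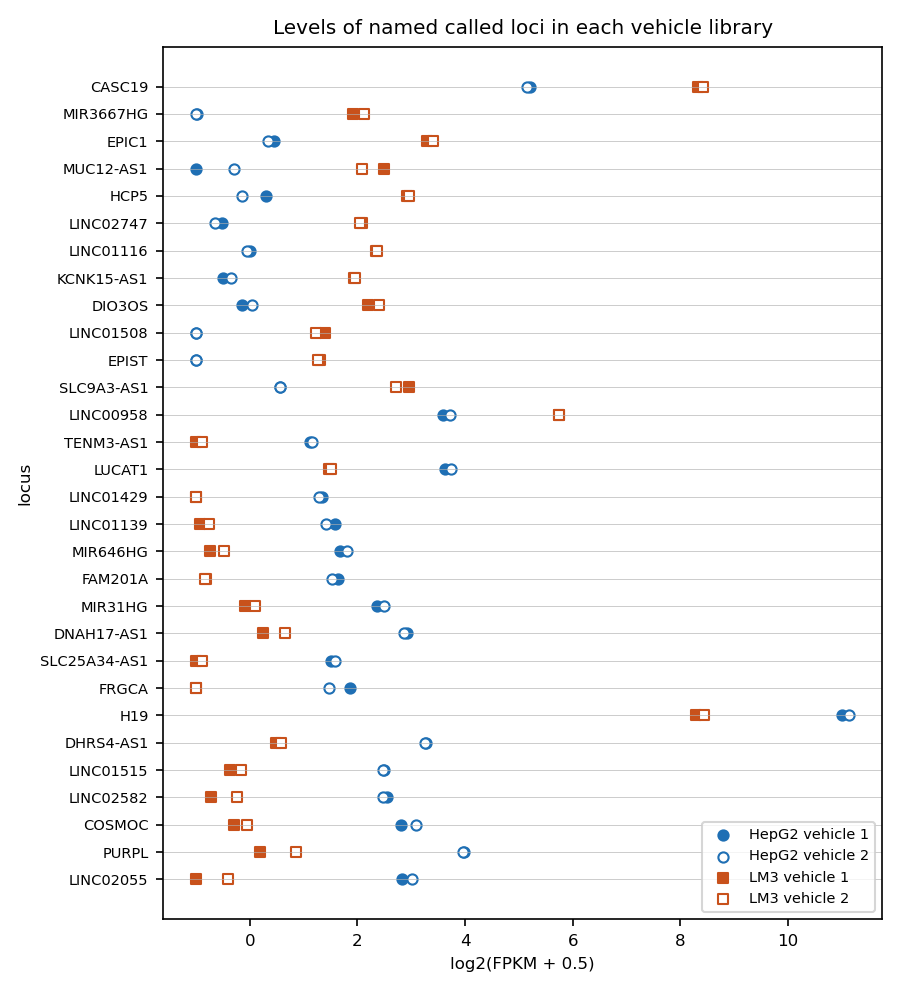
Level in log2(FPKM + 0.5) (horizontal axis) of the named called loci with a symbol, in each of the 4 vehicle libraries (circles HepG2, squares LM3, open symbols replicate 2). Loci are ordered by the difference, from LINC02055 at the bottom, high in HepG2, to CASC19 at the top, high in LM3.

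Loci present in one line and nearly absent from the other were counted separately. A locus was on where both libraries of a line reached 0.5 FPKM and off where both libraries of the other line were under 0.1 FPKM. By this rule 214 members (2.93%) were on in LM3 and off in HepG2, and 195 (2.67%) were on in HepG2 and off in LM3. Both libraries of the other line were listed at 0 for 79 and 54 of them. Without LM3 vehicle replicate 2 the counts were 248 and 268, and without LM3 vehicle replicate 1 they were 251 and 216. Of loci with at least 5 FPKM in HepG2, 15 were off in LM3 vehicle replicate 1 and 1 was off in replicate 2, so the count of abundant HepG2 loci that are off in LM3 rests on that library.

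The on/off loci with symbols were of low level. EPIST, whose nearest coding gene is PITX1, was at 0 FPKM in both HepG2 libraries and at 1.98 and 1.91 in LM3. LINC01508 was at 0 in both HepG2 libraries and at 2.15 and 1.85 FPKM in LM3. NR2F2-AS1, antisense to the nuclear receptor gene NR2F2, was at 0.09 and 0.03 FPKM against 1.15 and 1.04, LINC01238 was at 0.04 and 0.03 against 1.04 and 1.16, and MIR29B2CHG, the host of miR-29b-2 and miR-29c, was at 0.08 and 0.09 against 1 and 1.06. The last 3 were on/off without a 4-fold difference on this scale, which the added 0.5 compresses.

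On in HepG2 and off in LM3 were FRGCA at 3.16 and 2.26 FPKM against 0 in both LM3 libraries, and SLC25A34-AS1 at 2.33 and 2.5 against 0 and 0.04. FAM201A was at 2.62 and 2.4 FPKM against 0.07 and 0.06. LINC01139 was at 2.49 and 2.16 FPKM against 0.03 and 0.09. LINC01429, beside the stem cell factor gene SALL4, was at 2.05 and 1.93 FPKM against 0 in both LM3 libraries, and TENM3-AS1 was at 1.67 and 1.72 against 0 and 0.04. The LM3 libraries were at or near 0 for all 6.

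Most of the called loci had no Ensembl ID. Of the called loci, 156 of 187 higher in LM3 and 87 of 118 higher in HepG2 carried an LXLOC name, the name the tables give to loci without an Ensembl ID, which made up 4828 of 7302 members. The share called was 3.23% toward LM3 and 1.8% toward HepG2 for LXLOC loci, and 1.25% each for the 2474 Ensembl loci. Of 25 genes with SNHG names, 0 were called, against 4.18% of all members. Of the on/off loci, 18 of 214 for LM3 and 3 of 195 for HepG2 lay outside the assembled chromosomes, among them 3 of the 4 named without a symbol. LXLOC_057423, on a patch sequence, was at 0 in HepG2 and at 32.65 and 28.6 FPKM in LM3, and LXLOC_057872, on an alternate sequence of chromosome 2, was at 0 in HepG2 and at 23.22 and 23.44 in LM3. LXLOC_057991, on an alternate haplotype of the major histocompatibility complex, was at 9.08 and 12.76 FPKM in HepG2 and at 0 in LM3 with vehicle, but at 1.71 and 2.11 FPKM in the LM3 JQ1 libraries. ENSG00000287470, which lies within ERG on the other strand, was at 4.47 and 4.41 FPKM in HepG2 and at 0.03 and 0.08 in LM3. No source used here says how reads matching several such sequences were counted. The 500 members outside the assembled chromosomes held 33 calls toward LM3 (6.6%) and 17 toward HepG2 (3.4%), and without them 154 and 101 calls were left.

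In some stretches, neighbouring loci differed together, and how often this happens over all members was not measured. Neighbouring LXLOC loci may be pieces of a single transcript, so the counts below are not counts of independent genes, and these stretches, other than the longest runs of called loci, were picked after the values were seen. The longest run higher in LM3 held 14 called loci on chromosome 18 (chr18:16060908-20562442), of which 13 were on the minus strand. In those 13, all called because a run holds called loci alone, the medians were 20.4 and 17.2 FPKM in LM3 and 0.2 and 0.17 in HepG2. This stretch lies in the region of the centromere and is not a gene neighbourhood. The nearest coding genes of the 13, ANKRD30B and ROCK1, were 968945 to 2805952 bp away. How reads matching repeated sequences were counted is not given, so these values are uncertain. LXLOC_026155 was at 1.35 and 1.71 FPKM in HepG2 and at 51.54 and 52.5 in LM3, and LXLOC_026154 at 0.1 and 0.47 against 39.14 and 40.55.

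On chromosome X, 18 plus-strand loci upstream of XIAP (chrX:123799454-123857947), a gene for an inhibitor of apoptosis, were all higher in LM3 without overlap. Of these, 13 were called and 15 were on in LM3 and off in HepG2. Over all members, 53.7% were higher in LM3 without overlap, 2.56% were called higher in LM3 and 2.93% were on in LM3 alone. HepG2 values here were at most 0.43 and 0.35 FPKM, so all 18 passed the filter of 0.5 FPKM through LM3 alone. Their means had to be higher in LM3, and the counts are a description and no support for a direction. LXLOC_059370, which ends 1777 bp before XIAP, was at 0 FPKM in both HepG2 libraries and at 2.99 in both LM3 libraries. LXLOC_059357, the highest of them, was at 0.05 in both HepG2 libraries and at 4.01 and 4 in LM3. The level in LM3 stayed between 1.11 and 4.01 FPKM along the stretch. In the JQ1 libraries the medians were 0.02 FPKM in both HepG2 libraries and 1.23 and 1.3 in LM3.

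On chromosome 4, 30 loci beside the protocadherin gene PCDH10 (chr4:133257228-133424128) showed the reverse. Of these, 29 were lower in LM3 without overlap, 7 were called and 19 were on in HepG2 and off in LM3. The shares over all members were 26.7%, 1.62% and 2.67%. The medians in LM3 were 0 and 0.035 FPKM, so most of the 30 passed the filter through HepG2 alone and had to be lower in LM3. These counts too are a description. LXLOC_042727, on the minus strand, was at 21.72 and 19.87 FPKM in HepG2 and at 0.02 and 0.46 in LM3, and ENSG00000286467, which it overlaps, was at 15.74 and 16.25 against 0 and 0.32. The exception, LXLOC_041399, was at 2.75 and 2.32 FPKM in HepG2 and at 2.4 and 2.67 in LM3. Without LM3 vehicle replicate 2, 8 were called and 23 were on/off, and the log2 differences of LXLOC_042727 and ENSG00000286467 were -5.35 and -5.04 rather than -4.91 and -4.69. Of the 3 longest runs of called loci higher in HepG2, 1 lies in this stretch, and the others, of 4 loci each, lie within ADARB2 (chr10:1493944-1764476) and beside SALL4 (chr20:51814100-51862912). The plot of the 3 stretches shows the level along each.

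**Figure D4:**
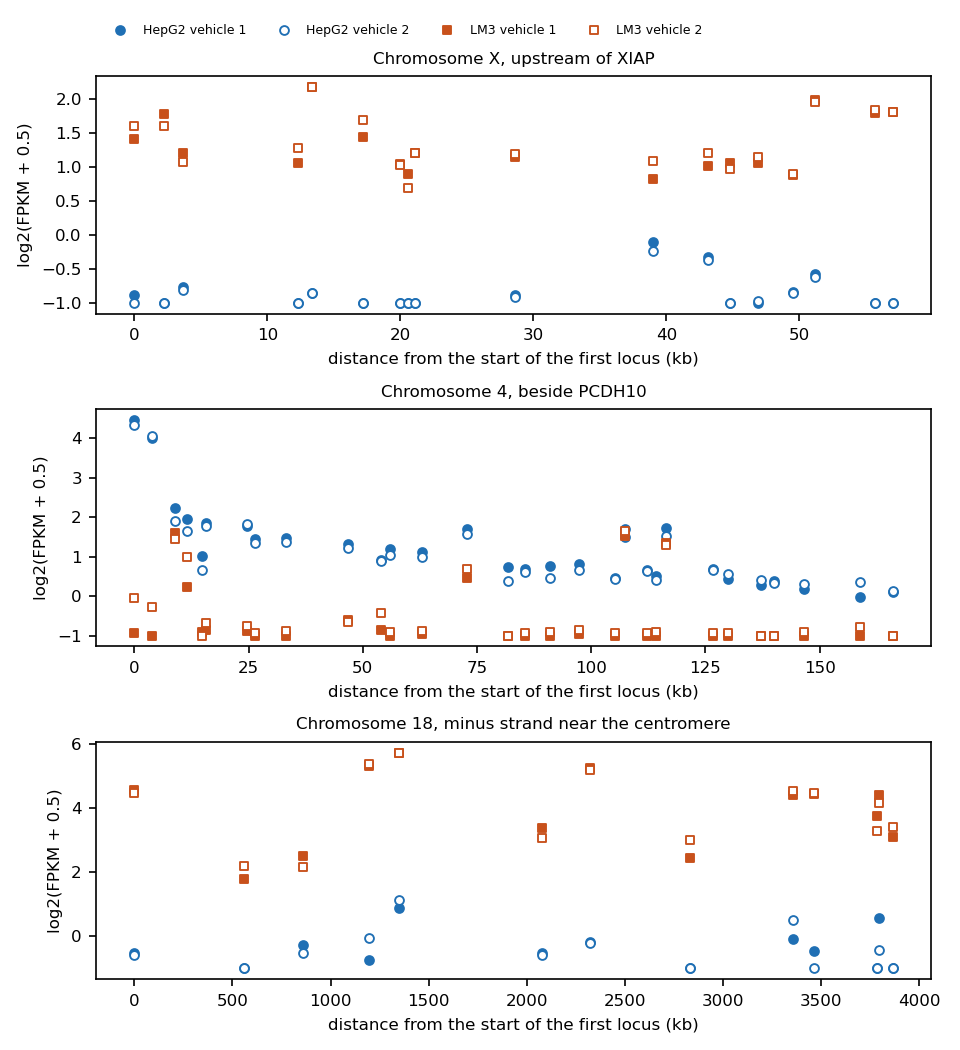
Level in log2(FPKM + 0.5) (vertical axis) of neighbouring loci against the distance from the start of the first locus in kb (horizontal axis), in the 4 vehicle libraries. The 18 loci on chromosome X and 13 on chromosome 18 are higher in LM3 and 29 of 30 on chromosome 4 are lower in LM3, with no overlap of libraries.

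On chromosome 8, 5 neighbouring minus-strand loci that include CASC19 (chr8:127072694-127229306) were higher in LM3, and the next member on that strand was not. Within this run LXLOC_054641, which overlaps CASC19 so that their values are not independent, was at 194.71 and 195.57 FPKM in HepG2 and at 1610.41 and 1683.1 in LM3, where it was the most abundant locus. LXLOC_054648, at chr8:127253043-127263399 on the same strand, was at 83.73 and 78.78 FPKM in HepG2 and at 1.15 and 2.75 in LM3, a log2 difference of -5.14 that was -5.63 without LM3 vehicle replicate 2. Adjoining loci of the same strand thus went in opposite directions. Further along, 5 loci at chr8:130548632-130655712 were on in LM3 and off in HepG2, as were 2.93% of all members. Of the other 8q24 members on the list, PVT1 was at 89.69 and 92.47 FPKM in HepG2 and at 81.8 and 84.14 in LM3, and CCDC26 at 7.85 and 6.18 against 8.04 and 9.73. Neither was called, and the difference of PVT1 turned to 0.03 toward LM3 when centred on snoRNA hosts.

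Scaffold sequences that carry ribosomal DNA held large differences at some loci, and the direction of the called loci there followed the strand. On GL000220.1, 5 of 7 plus-strand loci were called higher in LM3, and LXLOC_058204 was at 5.2 and 3.82 FPKM in HepG2 and at 419.19 and 430.78 in LM3. The minus-strand locus there, LXLOC_058209, was at 35.48 and 28.95 FPKM in HepG2 and at 1.36 and 1.72 in LM3. On KI270733.1, 3 of 8 plus-strand loci were called higher in LM3 and 5 of 6 minus-strand loci were called higher in HepG2. Other loci did not follow the strand. LXLOC_058200, on the plus strand of GL000220.1, was at 261.12 and 309.55 FPKM in HepG2 and at 254.51 and 272.71 in LM3. On KI270733.1, plus-strand LXLOC_058282 was lower in LM3 and minus-strand LXLOC_058292 higher, without overlap (log2 differences -0.507 and 0.499). Over all members, 2.56% were called higher in LM3 and 1.62% higher in HepG2. The libraries were depleted of ribosomal RNA, and the part that depletion had in these values was not tested. The JQ1 libraries held the same order at the called loci. There, LXLOC_058204 was at 5.21 and 5.79 FPKM in HepG2 and at 657.83 and 632.32 in LM3.

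By chromosome, the median difference was lowest on chromosome 6 (-0.39 over 317 members) and chromosome 4 (-0.15 over 219) and highest on chromosome 7 (0.53 over 473) and X (0.42 over 274), against 0.248 over all members. In windows of 10 Mb with at least 15 members, the lowest medians were on chromosome 4, -1.66 over 20 members and -1.45 over 36. The highest was 2.03 over 23 members on X. The window of 36 holds the 30 loci beside PCDH10, and that on X holds the 18 loci upstream of XIAP. The medians of these windows thus restate the stretches above, whose loci may be pieces of a single transcript. Copy number of these chromosomes was not measured here, and its part in the differences was not tested.

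The lists of lncRNAs by function were described by their members. Over all members, 53.7% were higher and 26.7% lower in LM3 without overlap, and 2.56% and 1.62% were called. A member that reached 0.5 FPKM in 1 line alone had to be lower in the other, so list counts and medians are descriptions of the members and no support for a direction. Of 23 hepatocyte lncRNAs listed, 15 had values and 5 were members, of which 0 were called and 4 were lower in LM3 without overlap, against 26.7% of all members. Of all 15 with values, 8 were lower and 3 higher in LM3 without overlap. The median difference of the 5 members was -0.998, against 0.248 over all members. CPS1-IT1, from an intron of the urea cycle gene CPS1, was at 6.84 and 6.79 FPKM in HepG2 and at 1.34 and 1.41 in LM3, and was called under 3 of 4 scalings though not as deposited. LINC01485 was at 0.98 and 0.94 FPKM against 0.04 and 0.05, and LINC00261, near the FOXA2 gene, at 0.48 and 0.64 against 0 and 0.06. The locus listed as HULC was at 0.63 and 0.8 FPKM against 0.61 and 0.5, and since it spans SLC35B3 on the other strand its value is uncertain. Most liver lncRNAs were thus low in both lines, and protein-coding liver markers were not analysed here.

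Lists of other cell types had few members. Immune lncRNAs summed to 2 and 1.9 FPKM in HepG2 and 2.79 and 3.51 in LM3 over 9 with values, with 3 members, 0 called. Stromal lncRNAs summed to 10.4 and 12.3 against 4.38 and 4.39, mainly FENDRR, an RNA beside FOXF1, at 8.29 and 9.14 against 3.35 and 3.44. Neural lncRNAs summed to 1.75 and 1.48 against 1.77 and 1.8. Germ cell, embryonic and placental lncRNAs summed to 7.39 and 5.78 against 2.32 and 2.39, of which ESRG, a retroviral RNA of pluripotent cells, held 5.06 and 3.33 against 0.94 and 1.06. LINC01518 of the same list was at 1.29 and 1.62 against 0 and 0.01, on in HepG2 and off in LM3. The third member of that list, LINC01356, went the other way without overlap, at 0.51 and 0.29 against 1.02 and 0.85. None of these lists held a locus called as deposited, though LINC01518 was called under 3 of 4 scalings and in the JQ1 libraries.

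None of the 29 snoRNA host genes was called, where 4.18% of all members were, so the count of 0 is near that share. Their median difference was -0.16, with 10 higher and 14 lower in LM3 without overlap, against 53.7% and 26.7% of all members. SNHG16 was at 146.11 and 150.36 FPKM in HepG2 and at 64.68 and 66.36 in LM3, and SNHG32 at 42.07 and 42.64 against 11.51 and 16.29. SNHG9 was at 8.19 and 9.03 FPKM against 2.7 and 2.1, and SNHG22 at 24.24 and 11.99 against 7.03 and 8.37, so its difference rests in part on HepG2 replicate 1. The list's median is 0 by construction where the lines are centred on it. Among 14 nuclear RNAs the median was -0.15, turning to 0.01 under that centring, and TERC, the RNA template of telomerase, was at 56.46 and 33.08 FPKM against 19.84 and 21.74.

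The 13 HOX cluster members had a median of 0.32, near that of all members. Without overlap, 8 were higher and 2 lower in LM3, against 53.7% and 26.7% of all members. Of the 13, 0 were called, against 4.18% of all members. HOXA-AS2 was at 0.35 and 0.65 FPKM in HepG2 and at 1.97 and 2.66 in LM3, and HOXB-AS1 at 0.95 and 1.41 against 0 and 0.15 (log2 difference -1.55, and -1.73 without LM3 vehicle replicate 2). HOTTIP was at 2.09 and 2.01 FPKM against 1.69 and 0.38, and its difference of -0.88 was -0.22 without LM3 vehicle replicate 2. HOXA-AS2 was thus higher in LM3 and HOXB-AS1 lower, with no overlap of libraries for either.

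Of 29 lncRNAs described as growth-promoting in liver cancer, 20 were lower in LM3 without overlap and 6 were higher, against 26.7% and 53.7% of all members, and the median of -0.32 was negative under all 4 scalings. LUCAT1, which is also on the inflammatory, hypoxia and invasion lists, was the 1 called, toward HepG2, as were 1.62% of all members. LINC00665 was at 5.29 and 5.27 FPKM in HepG2 and at 20.13 and 20.1 in LM3, and UCA1 at 1.33 and 1.44 against 3.31 and 3.29. Of 8 p53-responsive lncRNAs, 6 were lower and 2 higher in LM3 without overlap, against 26.7% and 53.7% of all members (median -0.23). PURPL was the 1 called, toward HepG2, as were 1.62% of all members. Of all 12 with values, 8 were lower and 2 higher in LM3 without overlap. TP53TG1 was at 2.02 and 2.43 FPKM against 1.26 and 1.17, and LINC-PINT at 7.96 and 7.21 against 9.87 and 10.06.

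Among 18 microRNA hosts, 2 were called, MIR31HG and MIR646HG, both higher in HepG2, as were 1.62% of all members. Without overlap, 10 were higher and 8 lower in LM3, against 53.7% and 26.7%, with a median of 0.12 that turned negative under 3 of 4 scalings. MIR503HG, the host of miR-503, was at 2.28 and 1.97 FPKM in HepG2 and at 7.29 and 7.22 in LM3. MIR137HG was at 0.63 and 0.66 FPKM against 0 and 0.01. Of 15 lncRNAs described with migration or invasion, LINC01116 was called higher in LM3, and MIR31HG and LUCAT1 higher in HepG2. Over all members, 2.56% and 1.62% were called in these directions. The median of the 15 was 0.15 and turned negative under 3 of 4 scalings. Inflammatory lncRNAs (7 members) had a median of -0.31, with NKILA at 0.47 and 0.52 FPKM against 1.06 and 1.23, and BISPR at 3.98 and 4.37 against 2.57 and 1.82. Hypoxia-responsive lncRNAs (8 members) had a median of 0.28, which turned to -0.05 under quantile normalization, with 6 higher and 2 lower in LM3 without overlap, against 53.7% and 26.7% of all members. The plot of list members shows these differences against the median of all members.

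**Figure D5:**
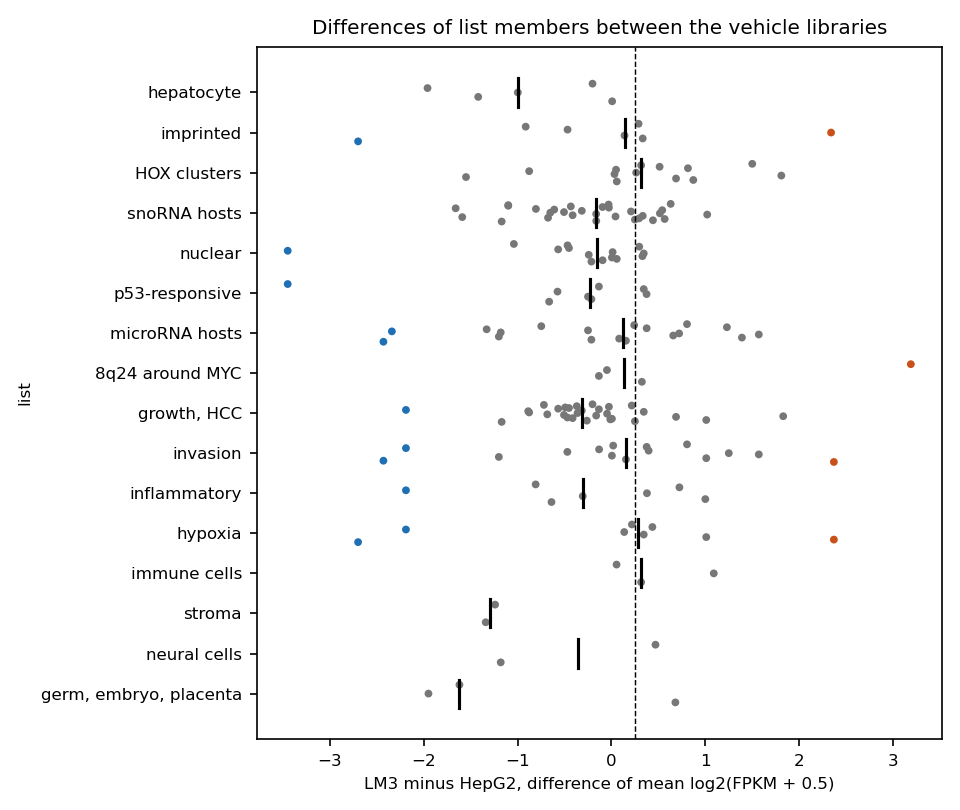
Difference of mean log2(FPKM + 0.5), LM3 minus HepG2 (horizontal axis), of the members of 16 lists (rows). Points are loci, coloured where called, bars are list medians and the dashed line is the median of all members, 0.248. The hepatocyte list has a median of -0.998 and the HOX list one of 0.32.

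Promoter windows of the kind printed above were found for 830 members. The ratio of observed to expected CG was at least 0.6 in 64.2% of these, in 67.8% of the 680 within 2-fold between the lines, in 30.8% of the 26 called and in 20.8% of the 24 on/off loci, against 49% of all 27305 windows in the table. H19, LUCAT1 and EPIST, with ratios of 0.242, 0.163 and 0.439, are examples of the lower group, and DIO3OS at 0.924 is one of the higher. This is a description chosen after the values were seen, over few loci, and it covers RefSeq genes alone.

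The contrast was repeated in the JQ1 libraries, which are other libraries of the same lines and tables. There, 146 of 6900 loci (2.12%) were called higher in LM3 and 96 (1.39%) higher in HepG2. Of the 187 vehicle calls toward LM3, 126 were called again, and 186 showed no overlap in the same direction, against 46.9% of all loci under JQ1. Of the 118 toward HepG2, 72 were called again and 118 showed no overlap in the same direction, against 27.7%. Of the on/off loci, 106 of 214 and 104 of 195 met the same rule under JQ1, where 2.29% and 2.51% of loci did, and 1 locus on in HepG2 alone with vehicle, LXLOC_057991, was on in LM3 with JQ1. Of 34 named called loci, 20 were called again, 9 of 15 higher in LM3 and 11 of 19 higher in HepG2. Those called with vehicle alone included DIO3OS, LINC01116, KCNK15-AS1, LINC02747, LINC01508 and SLC9A3-AS1 among the LM3-high loci, and DHRS4-AS1, DNAH17-AS1, FRGCA and SLC25A34-AS1 among the HepG2-high loci. H19 was at 2234.1 and 2101.04 FPKM in HepG2 and at 348.05 and 309.7 in LM3 under JQ1, and CASC19 at 13.66 and 16.12 against 248.02 and 257.85. LINC00958 was at 12.36 and 12.95 FPKM against 65.13 and 70.16, and HCP5 at 0.48 and 1.2 against 11.81 and 8.53.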

How the data were processed

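Values were FPKM as the authors deposited them, per the file headers, in 1 table per line, rounded to 2 decimals. The submitters' processing notes name Bowtie 0.12.2, hg19 and mm8 but give none of them a role. Coordinates match GRCh38, since of 8453 Ensembl IDs with values found in GENCODE release 29, 100% had the same chromosome and 83.9% the same start. How fragments were counted, and with which annotation and strand setting, is not given in the sources used here, so values of overlapping and antisense loci are uncertain.

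The tables were joined on the locus ID. Rows with a dash (7692 of 23161) were left out. Differences were taken on log2(FPKM + 0.5), which understates the change of low loci, and described without a test. Calls needed at least 4-fold and no overlap of libraries, and SDs are over 2 libraries per line. Depth was estimated from low values in short loci within fixed bounds, taking each as a single exon and each value as 1 fragment. Functions were tested on simulated data (Python 3.11.15, pandas 2.3.3, NumPy 2.4.6, matplotlib 3.10.9).

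Named were, among called loci with a symbol and at least 1 FPKM, the 10 with the largest difference and the 5 most abundant in each direction, the 6 most abundant on/off loci of each line, up to 4 members of each of 16 lists by difference, up to 2 on/off loci without a symbol per line, the 3 longest runs per line, and MALAT1, NEAT1 and H19. A result that this rule would name in the HOX list is not reported here. Loci outside this rule are marked as picked after the values were seen, as are all other loci of the stretches on chromosomes X, 4 and 8 and the scaffolds. Members and lists were chosen with earlier results of these data known. Promoter windows came from RefSeq (GRCh38.p14). Alternatives changed the scaling, pseudocount, filter, fold and on/off thresholds, left out overlapping loci or 1 library, or used the JQ1 libraries.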

Additional observations from a re-analysis of the deposited data

How the results depend on the processing

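The number of called loci depended on the pseudocount and the fold. With a pseudocount of 0.1 it was 544 toward LM3 and 393 toward HepG2, with 1 it was 96 and 52, at a fold of at least 2 it was 864 and 531, and at a fold of at least 8 it was 66 and 33, against 187 and 118. On/off loci numbered 118 for LM3 and 89 for HepG2 with on set at 1 FPKM, and 79 and 54 where off meant listed at 0, against 214 and 195. The median difference, 0.248 as deposited, was 0.0523 when centred on loci expressed in both lines and 0.41 when centred on snoRNA hosts. It was 0.0136 after quantile normalization, and these 3 shifts follow from the construction of each. The median was 0.0612 after rescaling without ribosomal and mitochondrial loci. With no filter, which adds loci of low level, it was 0.0286. Neither of these sets the median by construction, so the shift toward LM3 depended on scaling and filter. Leaving out 1 library gave 186 to 193 calls toward LM3, 112 to 132 toward HepG2, medians of 0.21 to 0.276, and 248 to 273 and 216 to 268 on/off loci for LM3 and HepG2. Leaving out loci outside the assembled chromosomes, an alternative chosen after seeing the data, gave 154 and 101. Of the named called loci, none changed direction under the alternatives run, and 504 of 829 alternative values of named loci moved by less than the spread between replicates. In the JQ1 libraries the medians of 4 lists changed sign, to -0.24 for imprinted RNAs, 0.205 for snoRNA hosts, -0.03 for 8q24 RNAs and 0.07 for inflammatory RNAs. No paired analysis was possible because the comparison comes from no test and the replicate numbers of different lines mark no shared culture or batch in the labels. The 2-decimal rounding limits values under about 0.1 FPKM.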
